A study of Mus musculus with 6 samples.

Results

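The 10 genes described here encode the enzymes that make and break down polyamines and the proteins that control the first of these enzymes. They were taken by name from the deposited expression tables, as *Odc1*, *Amd1*, *Srm* and *Sms* (synthesis), *Oaz1* and *Oaz2* (antizymes), *Azin1* and *Azin2* (antizyme inhibitors), and *Sat1* and *Smox* (catabolism). The rule that names them uses no measured value, but they were chosen with earlier results of these data known. All 10 were listed among the 20788 genes found in at least 1 of 6 libraries. All 10 also had a mean of at least 0.1 FPKM (fragments scaled to transcript length and to the fragments mapped in the library), as had 14336 genes in all. The study compared 2 kinds of subclone of B16, a melanoma line from C57BL/6 mice. Single colonies had been picked from plated B16 cells and sorted by how much tyrosine they turned into melanin. The labels give Tyr-H cells as high and Tyr-L cells as low in tyrosinase activity. Each group had 3 RNA sequencing libraries. Cells of both groups were grown in low-glucose DMEM with serum and antibiotics, and the labels name no engineered allele and no added agent for either. The sources used here do not say how many colonies stand behind a group or whether its 3 libraries came from separate cultures. The p-values therefore measure only the spread between these libraries, and what comes with tyrosine use and what comes with the picked clone cannot be told apart.

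Polyamines are small, positively charged molecules that bind nucleic acids and are needed for growth and translation. Ornithine decarboxylase (ODC) turns ornithine into putrescine, and spermidine synthase and spermine synthase then add aminopropyl groups that come from decarboxylated S-adenosylmethionine, made by AdoMet decarboxylase. Antizymes bind ODC, send it to the proteasome and slow polyamine uptake, while antizyme inhibitors, which resemble ODC but do not act as decarboxylases, bind the antizymes and release ODC. Spermidine/spermine acetyltransferase and spermine oxidase run the pathway backwards. Much of this control acts on translation and on protein stability, which RNA levels do not show. *Odc1* is a known target of MYC, and high ODC activity is a common feature of tumour cells.

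Depth, estimated from the steps between the lowest values, was 18.7 to 21.5 times 1000000 fragments a library. The 7 melanocyte markers examined lay between 9.52 and 3771 FPKM in all libraries. *Tyr*, which encodes tyrosinase, was higher in Tyr-H cells (at 23.8, 20.6 and 19.7 FPKM, against 10.7, 9.52 and 9.80 FPKM in Tyr-L cells), and the other 6 markers were lower. *Mitf* fell from 90.5 to 25.0 FPKM (log2 fold change -1.85), against 1.08 for *Tyr*. The others were *Pmel* (-0.73), *Dct* (-0.64), *Sox10* (-0.57), *Mlana* (-0.24) and *Tyrp1* (-0.23). For protein, an unlike measure, the study reports TYRP1 and TYRP2 higher and MITF without difference in Tyr-H cells. Of 14 markers of leukocytes, endothelium, fibroblasts and epithelium, 5 were unlisted and none of the others exceeded 4.45 FPKM, with sums over the list of 4.08 to 4.78 FPKM in the Tyr-L and of 5.36 to 5.89 FPKM in the Tyr-H libraries. Mitochondrially encoded genes held 8.89% to 9.43% of all FPKM in Tyr-L and 13.2% to 13.8% in Tyr-H libraries. The median log2 fold change over all tested genes was -0.15, so that the middle gene was slightly lower in Tyr-H cells. Dividing each library by its median ratio to the others moved that median to -0.01.

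In the comparison of Tyr-H with Tyr-L cells, 3 polyamine genes were higher (*Odc1*, *Srm* and *Azin2*), 4 were lower (*Amd1*, *Sms*, *Oaz1* and *Sat1*) and 3 did not pass the test (*Oaz2*, *Azin1* and *Smox*), at an adjusted p of at most 0.05 from limma with Benjamini-Hochberg adjustment over all tested genes. Among all 14336 tested genes, 17.9% were higher and 39.9% lower by the same rule, 57.8% together, so 7 of 10 is near the background. Under median ratio scaling the split was 6 higher and 1 lower, against 27.9% and 27.0% of all genes, and under quantile normalization 6 higher and 2 lower, against 26.1% and 27.8%. The genes that were higher or lower as deposited and stayed so under every scaling were *Odc1*, *Srm*, *Azin2* and *Amd1*. None of the 10 reached both an adjusted p of 0.05 and a 2-fold change in limma, which 8.75% of all genes did (2.96% higher and 5.78% lower), and 8 of the 10 had an unadjusted p under 0.05, as had 62.4% of all genes. The groups did not overlap in 7 of the 10, 4 with Tyr-H higher and 3 with Tyr-H lower, against 64.0% of all genes (20.2% higher and 43.8% lower). The median log2 fold change of the 10 was 0.10. In bulk RNA, fewer cells that express a gene and less of its RNA per cell cannot be told apart. With 3 libraries a group, an exact permutation test cannot give a p below 0.1, which is the value for each gene whose groups did not overlap.

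**Figure D1:**
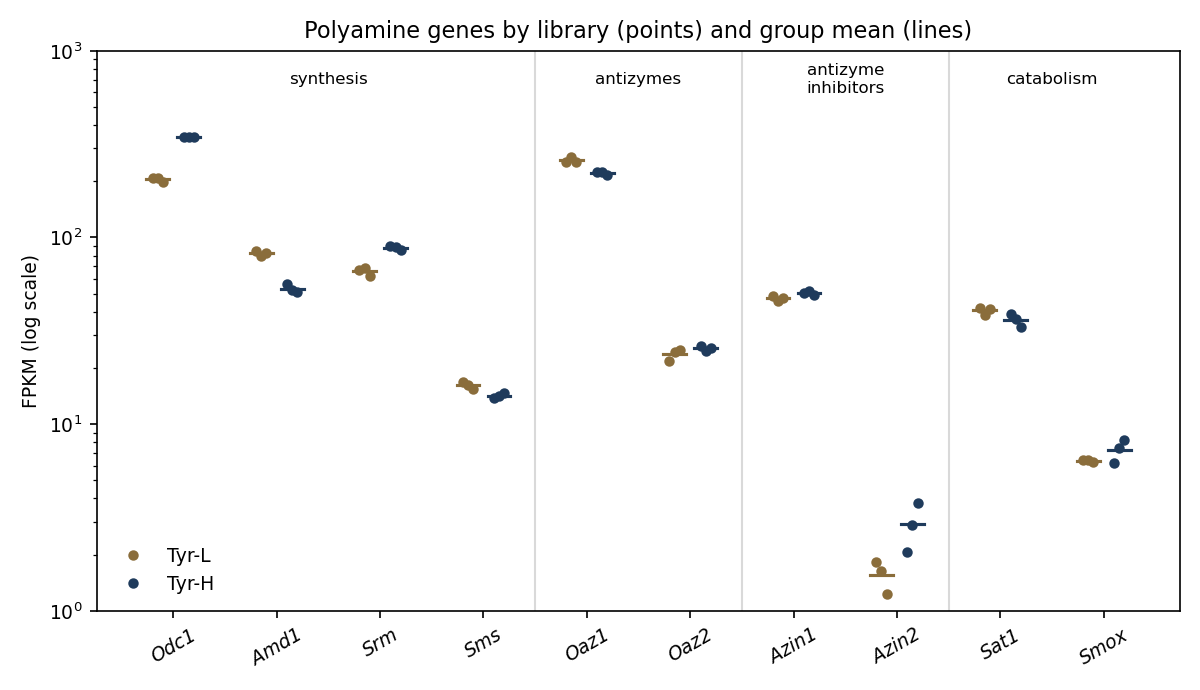
FPKM (vertical axis, log scale) of the 10 polyamine genes (horizontal axis, grouped by role) in each of the 3 Tyr-L (brown) and 3 Tyr-H (blue) libraries. Points are libraries and horizontal lines are group means. *Odc1* and *Srm* lie higher and *Amd1* lower in all 3 Tyr-H libraries, while the libraries of *Oaz2*, *Sat1* and *Smox* overlap between groups.

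*Odc1* encodes ODC, the first and usually rate-limiting enzyme of the pathway. This protein-coding gene spans chr12:17544794-17551505 (GRCm38, plus strand), and its region holds the small nucleolar RNA Gm22748, which was unlisted in all libraries. The 120 bases before its RefSeq transcription start, chr12:17544753-17544872 in GRCm38.p6, are shown because *Odc1* had the smallest adjusted p of the 10 genes. That start is also the deposited one (17544873), while the GENCODE span above begins at 17544794, so part of these bases lies inside that span. Capitals mark matches to the GC box (GGGCGG on either strand), the site class bound by SP1.

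Odc1 promoter: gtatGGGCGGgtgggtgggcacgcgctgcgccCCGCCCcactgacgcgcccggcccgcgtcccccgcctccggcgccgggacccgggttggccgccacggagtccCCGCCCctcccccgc

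Its level was 209, 208 and 199 FPKM in Tyr-L libraries 1, 2 and 3, against 347, 346 and 344 FPKM in the 3 Tyr-H libraries. All Tyr-H libraries stood above all Tyr-L libraries, and the Tyr-H libraries lay within a few FPKM of each other. The means were 205 ± 5.30 and 346 ± 1.62 FPKM (SD, n = 3 each), 68.7% higher in Tyr-H cells. On the log2 scale the difference was 0.75 (SE 0.03, 95% interval 0.68 to 0.83, adjusted p = 2.86e-07 from limma). Of all tested genes, 5.02% had a log2 fold change at least that high. Across the 16 alternative settings it stayed between 0.66 and 0.91 with an adjusted p of at most 0.000267. In both groups *Odc1* was among the most abundant transcripts, at the 98.6th percentile of listed genes in Tyr-L and the 99.1th in Tyr-H cells.

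*Amd1* encodes AdoMet decarboxylase, which supplies the aminopropyl donor for both later steps, and it went the other way. The gene lies on the minus strand at chr10:40287458-40302186. Its promoter, chr10:40302189-40302308 on the minus strand in GRCm38.p6, is shown beside that of *Odc1* because these 2 decarboxylase genes moved in opposite directions. Capitals mark the single GC box.

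Amd1 promoter: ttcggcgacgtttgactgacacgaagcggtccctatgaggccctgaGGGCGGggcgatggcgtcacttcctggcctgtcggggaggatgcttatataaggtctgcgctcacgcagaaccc

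The messenger of *Amd1* is known for a short reading frame in its leader, whose peptide stalls ribosomes when polyamines are plentiful, so that its RNA level and its protein level can part. The reading frame starts at base 12 of a leader of 328 nt in the GENCODE M21 transcript and has 6 codons before its stop. It lies at chr10:40302155-40302175 on the minus strand, with the start and stop codons in capitals.

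Amd1 upstream reading frame: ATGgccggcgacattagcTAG

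*Amd1* was at 84.5, 80.0 and 82.2 FPKM in Tyr-L and at 56.6, 52.2 and 50.8 FPKM in Tyr-H libraries. Every Tyr-H library lay below every Tyr-L library. The means were 82.2 ± 2.23 and 53.2 ± 3.06 FPKM (SD, n = 3 each), 35.3% lower in Tyr-H cells, with a log2 fold change of -0.63 (SE 0.05, 95% interval -0.73 to -0.53, adjusted p = 4.68e-06 from limma). A log2 fold change at least that low was found in 16.3% of all tested genes. It stayed between -0.72 and -0.47 in all alternatives, -0.47 being its value under median ratio scaling. *Amd1* shares sequence with *Amd2*, an intronless copy of the gene, in which 53.4% of the 150-nt windows of *Amd1* recur unaltered, so reads could be divided between them. *Amd2* was at 6.91, 7.06 and 7.31 FPKM in Tyr-L and at 5.36, 4.46 and 4.73 FPKM in Tyr-H libraries, and the sum of the 2 genes gave a log2 fold change of -0.62. The pseudogene *Amd-ps3*, which holds 19.9% of these windows, lay between 2.10 and 3.63 FPKM.

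*Srm* encodes spermidine synthase, which joins putrescine to the first aminopropyl group, and it was higher in Tyr-H cells, as was *Odc1*. It lies on the plus strand at chr4:148591503-148594993. It was at 67.1, 68.6 and 62.3 FPKM in Tyr-L and at 89.6, 88.4 and 85.2 FPKM in Tyr-H libraries, with no overlap. The means were 66.0 ± 3.31 and 87.7 ± 2.30 FPKM (SD, n = 3 each), a ratio of 1.33. In limma the log2 fold change was 0.41 (SE 0.04, 95% interval 0.31 to 0.51, adjusted p = 3.89e-05) and lay between 0.32 and 0.56 in the 16 alternatives, with an adjusted p of at most 0.00219.

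*Sms*, the gene of spermine synthase, differed little between the groups. This gene of the X chromosome (chrX:157443855-157492287, minus strand) was at 16.8, 16.3 and 15.4 FPKM in Tyr-L and at 13.8, 14.1 and 14.8 FPKM in Tyr-H libraries. The groups did not overlap, but the lowest Tyr-L library was close to the highest Tyr-H library. The log2 fold change was -0.18 (SE 0.05, 95% interval -0.30 to -0.06, adjusted p = 0.0151 from limma), near the median of all genes. Under median ratio scaling it was -0.03 (adjusted p = 0.689), and without Tyr-L library 1 it was -0.15 (adjusted p = 0.0572). After rescaling to one total it was larger, at -0.27 (adjusted p = 0.00122), and it passed in 13 of 16 alternatives.

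The antizymes bind ODC and mark it for the proteasome, and their full-length protein needs a ribosomal frameshift that polyamines promote. *Oaz1* (chr10:80826656-80829290, plus strand) is the main antizyme gene and had the highest FPKM of the 10 in Tyr-L cells. It was at 252, 269 and 254 FPKM in Tyr-L and at 224, 223 and 216 FPKM in Tyr-H libraries, so that all Tyr-H libraries were below all Tyr-L libraries. The means were 259 ± 9.23 and 221 ± 4.50 FPKM (SD, n = 3 each). This gave a log2 fold change of -0.22 (SE 0.04, 95% interval -0.30 to -0.14, adjusted p = 0.000535 from limma). It was close to that of the median gene, and under median ratio scaling it was -0.07 (adjusted p = 0.141). It passed the test in the other 15 of 16 alternatives, quantile normalization included (-0.22, adjusted p = 0.0029). The pseudogene *Oaz1-ps*, which holds 11.2% of the 150-nt windows of *Oaz1*, was at 6.41 to 9.26 FPKM in Tyr-L and at 6.10 to 8.08 FPKM in Tyr-H libraries.

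*Oaz2* (chr9:65668001-65690300, plus strand), the second broadly expressed antizyme, did not pass the test. It was at 21.7, 24.4 and 25.0 FPKM in Tyr-L and at 26.3, 24.8 and 25.5 FPKM in Tyr-H libraries. The groups overlapped, with 1 low Tyr-L library and the remaining 5 close together (p = 0.2 in the two-sided exact permutation test). The log2 fold change was 0.11 (SE 0.06, 95% interval -0.02 to 0.24, adjusted p = 0.134 from limma). Without that low library, Tyr-L library 1, it was 0.05 (adjusted p = 0.44), and under median ratio scaling it was 0.26 (adjusted p = 0.00481).

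*Azin1* and *Azin2* encode the antizyme inhibitors, and they differed in level by more than a factor of 10. *Azin1* (chr15:38487427-38519266, minus strand), the broadly expressed inhibitor, was at 48.7, 45.5 and 47.6 FPKM in Tyr-L and at 50.4, 51.4 and 49.2 FPKM in Tyr-H libraries. All Tyr-H libraries were above all Tyr-L libraries by a narrow gap. Its log2 fold change was 0.09 (SE 0.04, 95% interval 0.01 to 0.18) and missed the threshold (adjusted p = 0.0662 from limma). Its sign turned when each library was rescaled to the same total (-0.00346), and under median ratio scaling the value was 0.24 (adjusted p = 0.000403). *Azin1* overlaps the antisense gene *Gm49077*, which was unlisted in all libraries.

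*Azin2* (chr4:128930233-128962442, minus strand), an inhibitor best known from brain and testis, was the least abundant of the 10 genes and had the largest log2 fold change among them in the deposited values, although that of *Odc1* was larger with a pseudocount of 1 FPKM (0.75 against 0.59), without Tyr-L library 3 (0.73 against 0.68) and without Tyr-H library 3 (0.76 against 0.62). It was at 1.82, 1.64 and 1.24 FPKM in Tyr-L and at 2.07, 2.87 and 3.80 FPKM in Tyr-H libraries. These values correspond to roughly 73, 72 and 50 fragments in Tyr-L and 87, 127 and 147 fragments in Tyr-H libraries, from the estimated depth and the longest annotated transcript. These fragment numbers share the uncertainty of that depth. The groups did not overlap, and the Tyr-H libraries were spread widely. The means were 1.57 ± 0.297 and 2.91 ± 0.868 FPKM (SD, n = 3 each), a ratio of 1.86, with a log2 fold change of 0.83 (SE 0.22, 95% interval 0.34 to 1.32, adjusted p = 0.00917 from limma). It passed the test in all 16 alternatives, between 0.59 and 1.05, and exceeded a 2-fold change under quantile normalization (1.02) and without Tyr-H library 1 (1.05). The antisense gene *Gm15904*, which lies inside *Azin2*, was unlisted in all libraries.

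The catabolic genes showed no difference that held in all alternatives. *Sat1* (chrX:155213132-155216449, minus strand) encodes the acetyltransferase that tags spermidine and spermine for export or oxidation. It was at 42.1, 38.5 and 41.6 FPKM in Tyr-L and at 38.7, 36.7 and 33.0 FPKM in Tyr-H libraries. Tyr-H library 1 lay above Tyr-L library 2, so the groups overlapped (p = 0.2 in the two-sided exact permutation test). Its log2 fold change was -0.18 (SE 0.06, 95% interval -0.31 to -0.04, adjusted p = 0.0343 from limma), and it passed the test in 8 of 16 alternatives. Under median ratio scaling it was -0.02 (adjusted p = 0.779), and leaving out Tyr-L library 1 (-0.15), Tyr-L library 3 (-0.16), Tyr-H library 2 (-0.19) or Tyr-H library 3 (-0.11) also took the adjusted p above 0.05, from 0.0596 to 0.105. It was larger after rescaling to one total (-0.27, adjusted p = 0.00829) and without Tyr-H library 1 (-0.23, adjusted p = 0.0127).

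*Smox* (chr2:131491496-131525922, plus strand) encodes spermine oxidase, which turns spermine back into spermidine and releases hydrogen peroxide. It was at 6.41, 6.46 and 6.27 FPKM in Tyr-L and at 6.19, 7.48 and 8.22 FPKM in Tyr-H libraries. Tyr-H library 1 was the lowest of the 6 libraries, and the other Tyr-H libraries were the highest (p = 0.4 in the two-sided exact permutation test). A log2 fold change of 0.18 was fitted (SE 0.10, 95% interval -0.04 to 0.40, adjusted p = 0.143 from limma). It was 0.33 under median ratio scaling (adjusted p = 0.015) and 0.29 without Tyr-H library 1 (adjusted p = 0.0108). After rescaling to one total (adjusted p = 0.445) and without Tyr-H library 3 (adjusted p = 0.436) it was 0.09.

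**Figure D2:**
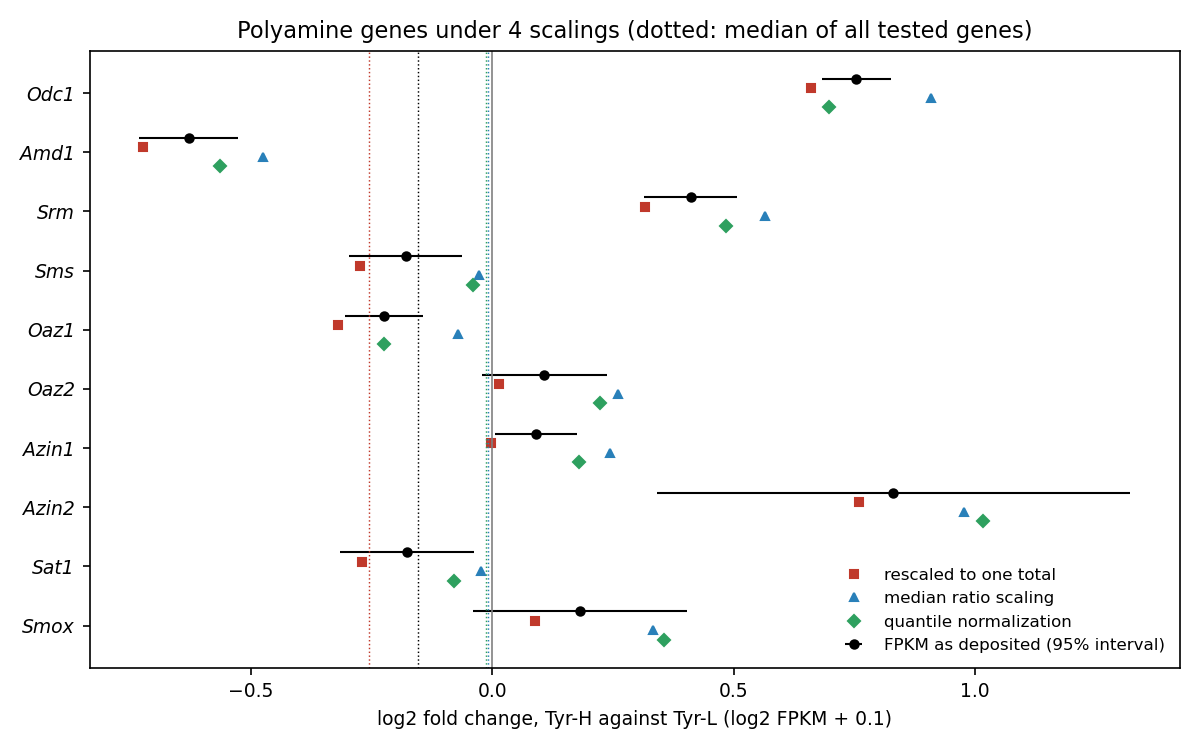
Log2 fold change between Tyr-H and Tyr-L (horizontal axis, log2 of FPKM + 0.1) for each of the 10 polyamine genes under 4 scalings of the libraries. Black points carry 95% intervals from limma on the deposited values, other symbols are the alternatives, and dotted lines are the medians of all tested genes. *Odc1*, *Srm* and *Azin2* lie above 0 and *Amd1* lies below 0 under each scaling, and *Azin1* is on the other side of 0 after rescaling to one total (-0.00346).

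A ratio between 2 genes within a library is unaltered when a library is divided by a single factor, as in median ratio scaling or rescaling to one total (quantile normalization can alter it), and it sets each enzyme against its regulator or its neighbour in the pathway. The ratio of *Odc1* to its antizyme *Oaz1* was 0.826, 0.772 and 0.783 in the Tyr-L libraries and 1.55, 1.55 and 1.59 in the Tyr-H libraries. In FPKM, *Oaz1* thus stood above *Odc1* in all Tyr-L libraries and below it in all Tyr-H libraries. The means were 0.794 ± 0.0287 and 1.56 ± 0.0251 (SD, n = 3 each), 1.97 times higher in Tyr-H. FPKM of 2 genes also depend on the transcript lengths used, which are not given. Which of the 2 messengers was the more abundant is therefore not shown, only the change between groups. *Azin1* to *Oaz1* was 0.183 ± 0.0123 in Tyr-L and 0.228 ± 0.00252 in Tyr-H libraries. Of the synthases, *Sms* to *Srm* fell from 0.245 ± 0.00694 to 0.162 ± 0.00992. *Sat1* to *Odc1*, the first backward enzyme against the first forward one, fell from 0.199 ± 0.0121 to 0.104 ± 0.00794. *Smox* to *Sms*, the enzymes that use up and make spermine, was 0.396 ± 0.0129 and 0.511 ± 0.0564. In none of these 5 ratios did the groups overlap. For *Odc1* to *Oaz1*, *Azin1* to *Oaz1* and *Sms* to *Srm* this was fixed, since the genes of each pair were already apart in opposite directions. The share of other gene pairs without overlap was not computed, and single genes did not overlap in 64.0% of cases.

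Further ratios were added after the values had been seen. *Srm* to *Amd1* was 0.794, 0.858 and 0.758 in Tyr-L libraries and 1.58, 1.69 and 1.68 in Tyr-H libraries, 2.06 times higher on average. *Odc1* to *Amd1* was 2.49 ± 0.0911 in Tyr-L and 6.51 ± 0.339 in Tyr-H libraries, 2.61 times higher, and *Azin1* to *Azin2* was 31.0 ± 6.46 and 18.4 ± 5.74. *Odc1* and *Srm* on one side and *Amd1* on the other were already apart in opposite directions, which fixes that the ratios to *Amd1* do not overlap between groups.

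**Figure D3:**
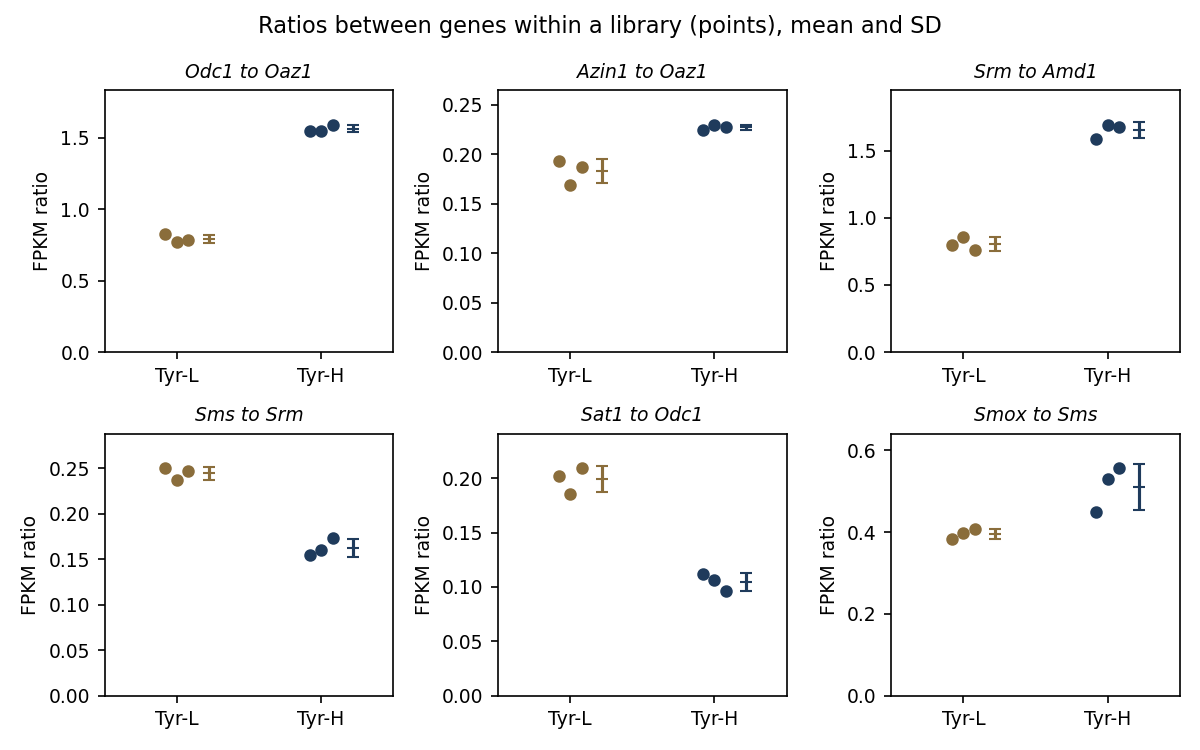
Ratio of FPKM between 2 polyamine genes within each library (vertical axis, from 0) in 3 Tyr-L (brown) and 3 Tyr-H (blue) libraries, with the mean and SD beside the points. The ratio of *Odc1* to *Oaz1* is at most 0.826 in Tyr-L and at least 1.55 in Tyr-H libraries, and in the other panels the groups do not overlap either.

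The order of the 10 levels in FPKM was *Oaz1*, *Odc1*, *Amd1*, *Srm*, *Azin1*, *Sat1*, *Oaz2*, *Sms*, *Smox* and *Azin2* in Tyr-L cells, from 259 down to 1.57 FPKM, and the range of each gene's 3 libraries lay above that of the next. In Tyr-H cells *Odc1* stood above *Oaz1* and *Srm* above *Amd1*, while the last 6 places were the same. *Amd1* (53.2 ± 3.06 FPKM) and *Azin1* (50.3 ± 1.09 FPKM) had overlapping ranges there, although *Amd1* was the higher of the pair within each library. The ranges of all other neighbours in Tyr-H cells did not overlap. For *Azin2*, the closest profiles over the 6 libraries among genes of at least 1 FPKM were those of *Rpl29*, *Ndufa6* and *Rpl27-ps3*. They are given as a description of 6 points that fall into 2 groups, and they changed far less than *Azin2* itself, with log2 fold changes of 0.21, 0.34 and 0.42.

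RefSeq promoter sequences (250 bases before to 50 after the start, GRCm38.p6) were at hand for 7 of the 10 genes, with 2 for *Sms*, and those of *Srm*, *Azin1* and *Azin2* were not analysed here. The GC box (GGGCGG, both strands) occurred in 6 of these 8 promoters, not in that of *Oaz1* or the first of *Sms*, and in 35.7% of all 32851 promoters of the same length. *Odc1* had 4 matches, at -238, -116, -88 and -15 from the start, of which the last 3 are in capitals in the sequence above, and *Amd1* had 1 at -74. The E-box CACGTG, the letters bound by MYC and MAX, was found in 1 of the 8 (the first of *Sms*, at -196) against 7.15% of all promoters. TATAAA was found in 1 (*Oaz1*, at -3) against 13.6%, and the cAMP response element TGACGTCA in none against 1.79%. Only these exact letters were searched, so variants such as the tatataag in the *Amd1* sequence above were not counted. The E-boxes known to bind MYC in *Odc1* lie in its first intron, outside these windows.

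Around the pathway, 33 linked genes were examined, of which 27 were listed and 23 tested. Of these 23, 2 were higher and 15 lower in Tyr-H cells and 6 did not pass (limma, adjusted p of at most 0.05), against 17.9% higher and 39.9% lower among all genes, with a median log2 fold change of -0.20 against -0.15 for all genes. No linked gene was called 2-fold (8.75% of all genes were), and 17 had an unadjusted p under 0.05, as had 62.4% of all genes. Under median ratio scaling 4 were higher and 6 lower, against 27.9% and 27.0% of all genes. The list was drawn up with earlier results of these data known.

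The supply of S-adenosylmethionine and the salvage of methylthioadenosine, the by-product of both synthases, are the steps that join the polyamine and methionine pathways. Of 7 genes tested, 6 were lower, as were 39.9% of all genes. *Mat2a*, which encodes the enzyme that makes S-adenosylmethionine, the substrate of AMD1, was at 228, 216 and 239 FPKM in Tyr-L and at 155, 157 and 149 FPKM in Tyr-H libraries, with no overlap. Its log2 fold change was -0.57 (SE 0.04, adjusted p = 4.77e-06 from limma) and -0.42 under median ratio scaling, next to -0.63 and -0.47 for *Amd1*. The salvage genes *Mtap*, *Mri1*, *Apip*, *Enoph1* and *Adi1* had log2 fold changes of -0.25 to -0.20, near the median of all genes, and under median ratio scaling none of these 5 passed the test, while under quantile normalization *Mtap* (-0.20, adjusted p = 0.00353) and *Adi1* (-0.17, adjusted p = 0.00483) did. *Mat2b*, the regulatory subunit, was at -0.04 (adjusted p = 0.624), and at 0.12 (adjusted p = 0.142) under median ratio scaling.

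Of the transporters, the 3 tested were all lower in Tyr-H cells, as were 39.9% of all genes. *Atp13a2*, the lysosomal pump that moves polyamines into the cytosol, was at 107, 111 and 104 FPKM in Tyr-L and at 69.4, 60.2 and 61.8 FPKM in Tyr-H libraries. Its groups were well apart, with a log2 fold change of -0.75 (SE 0.05, adjusted p = 4.46e-06 from limma), or -0.60 under median ratio scaling. *Slc18b1*, a vesicular polyamine transporter, was at 9.76, 9.50 and 10.0 FPKM in Tyr-L and at 6.00, 5.19 and 5.05 FPKM in Tyr-H libraries (log2 fold change -0.84, SE 0.08, adjusted p = 1.78e-05 from limma, and -0.69 under median ratio scaling). These 2 had the largest decreases among the linked genes. *Atp13a3* was at -0.20 (adjusted p = 0.0174), and at -0.04 (adjusted p = 0.542) under median ratio scaling.

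Spermidine is also the substrate for hypusine, the modified residue of the translation factor eIF5A. *Eif5a* was at 725, 736 and 732 FPKM in Tyr-L and at 825, 798 and 834 FPKM in Tyr-H libraries, with a log2 fold change of 0.16 (SE 0.03, adjusted p = 0.00234 from limma) that turned to -0.03 (adjusted p = 0.50) under quantile normalization and was 0.32 (adjusted p = 6.95e-05) under median ratio scaling. After rescaling to one total it was 0.07 (adjusted p = 0.113). The ratio of *Eif5a* to *Odc1*, also added after the values had been seen, went from 3.57 ± 0.104 to 2.37 ± 0.0591. *Eif5a2* was lower (7.83 to 6.10 FPKM, log2 fold change -0.36), with -0.20 under median ratio scaling (adjusted p = 0.0332) and -0.18 under quantile normalization (adjusted p = 0.0523). The modifying enzymes *Dhps* (-0.11) and *Dohh* (0.06) did not pass the test as deposited. *Dhps* turned to 0.04 (adjusted p = 0.569) under median ratio scaling and 0.02 (adjusted p = 0.809) under quantile normalization, and passed as lower (-0.20, adjusted p = 0.012) after rescaling to one total, and *Dohh* passed under both, at 0.22 (adjusted p = 0.00123) and 0.16 (adjusted p = 0.00594), but was at -0.03 (adjusted p = 0.572) after rescaling to one total.

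Of the transcription factors known to act on these genes, *Myc*, *Max* and *Nfe2l2* were lower and *Mxi1*, which competes with MYC for MAX, was higher in Tyr-H cells as deposited. *Max* did not pass the test under median ratio scaling (-0.03, adjusted p = 0.557) or quantile normalization (-0.10, adjusted p = 0.0952), and *Nfe2l2* went from -0.26 to -0.11 under median ratio scaling (adjusted p = 0.0301). *Myc* was at 18.9, 21.2 and 20.5 FPKM in Tyr-L and at 17.4, 16.6 and 15.3 FPKM in Tyr-H libraries, with no overlap. Its log2 fold change was -0.30 (SE 0.06, adjusted p = 0.00251 from limma), and -0.15 (adjusted p = 0.0792) under median ratio scaling. It passed as lower under quantile normalization (-0.17, adjusted p = 0.0457) and after rescaling to one total (-0.39, adjusted p = 0.00109). *Mxi1* was at 3.22, 3.36 and 3.11 FPKM in Tyr-L and at 4.85, 5.27 and 5.20 FPKM in Tyr-H libraries (log2 fold change 0.64, SE 0.08, adjusted p = 0.000123 from limma). *Odc1* and *Srm*, both known MYC targets, were thus higher in the group in which the *Myc* messenger was not higher, and whether one bears on the other was not tested.

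Of the remaining linked genes, *Oat* was lower by a small step (159 to 150 FPKM, log2 fold change -0.09, adjusted p = 0.0419 from limma). It encodes ornithine aminotransferase, which interconverts ornithine and glutamate semialdehyde. Its direction turned under median ratio scaling (0.07, adjusted p = 0.127). It stayed lower and passed under quantile normalization (-0.09, adjusted p = 0.0283) and after rescaling to one total (-0.18, adjusted p = 0.000709). The arginase genes that make ornithine were nearly silent, with *Arg1* unlisted and *Arg2* at most at 0.0955 FPKM. *Paox*, which oxidises acetylated polyamines, had a log2 fold change of 0.27 (adjusted p = 0.0828), and under median ratio scaling of 0.42 (adjusted p = 0.0147). *Sat2* was at 0.19 (adjusted p = 0.417) and the testis antizyme *Oaz3* stayed under 1 FPKM in all libraries.

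**Figure D4:**
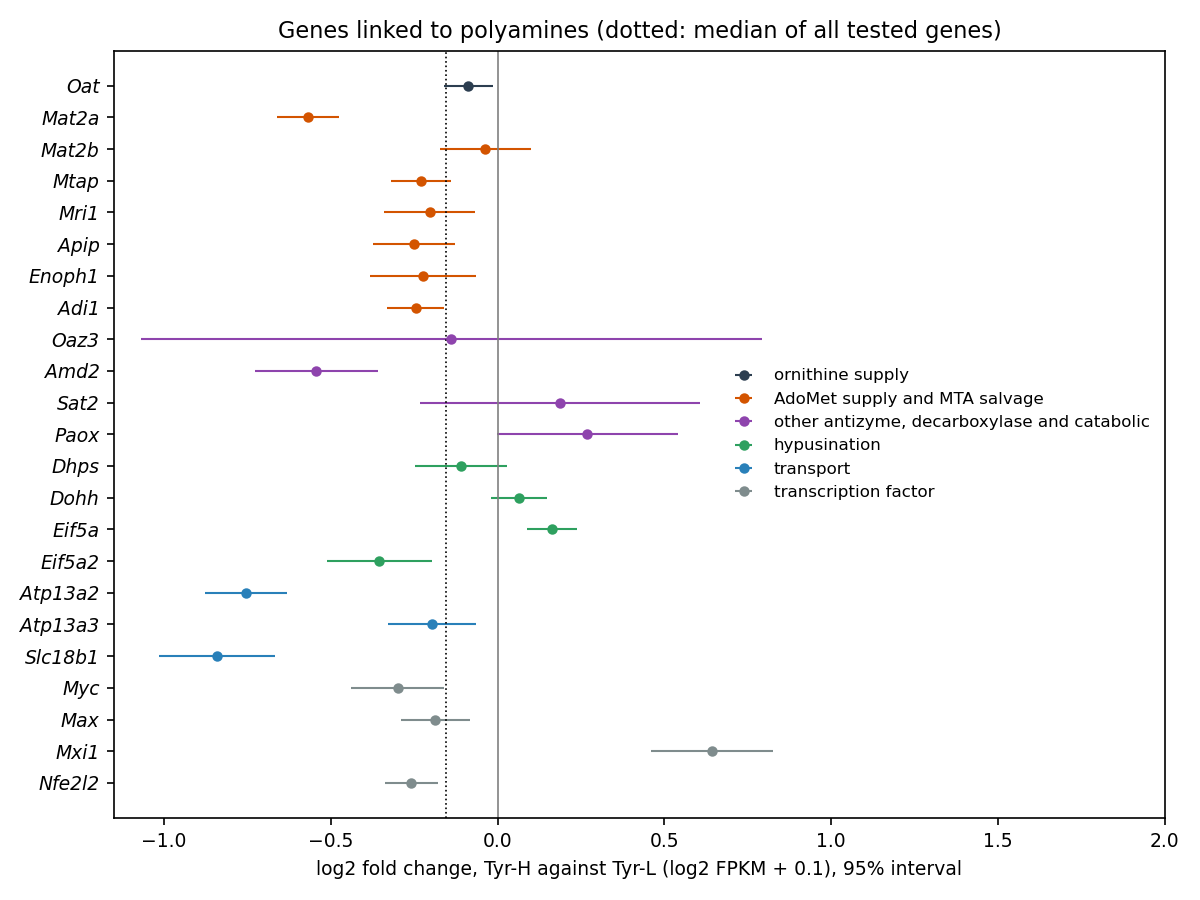
Log2 fold change between Tyr-H and Tyr-L with 95% intervals (horizontal axis, log2 of FPKM + 0.1, limma) for the 23 tested genes linked to polyamines, coloured by role. The dotted line is the median of all tested genes (-0.15). *Slc18b1*, *Atp13a2*, *Mat2a* and *Amd2* lie furthest to the left and *Mxi1* furthest to the right.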

How the data were processed

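The authors sequenced 3 Tyr-L and 3 Tyr-H libraries of B16 cells, made with a VAHTS mRNA-seq v2 kit, on an Illumina instrument (paired ends, 150 bp). For each library they deposited 1 table of FPKM values, which corrects for transcript length and depth. The submitters' processing notes name Trimmomatic, HISAT2, HISAT and the build GRCm38.p6, and the quantifier, annotation and strand setting are not given in the sources used here. Groups and replicate numbers came from the labels. Genes unlisted in a library were taken as 0.

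Genes whose mean reached 0.1 FPKM (14336) were compared on log2(FPKM + 0.1) with limma 3.58.1 in R 4.3.3 (1 coefficient, eBayes with a variance trend, two-sided, Benjamini-Hochberg adjustment over all of them). Fold changes on this scale understate changes of genes near 0.1 FPKM. A call needed an adjusted p of at most 0.05 and a 2-fold change, the thresholds in the study's methods. The procedure was tested on simulated data. Single values had an exact permutation test of 3 against 3. Read counts could not be recovered, since at most 30.0% of low values lay within 0.1 of a whole number of fragments, so no count test was run. The precision that depth gives is known only approximately. Replicate libraries held at most 1 identical value, and their median absolute log2 difference was 0.0953 to 0.114 within groups and 0.315 to 0.371 between groups.

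Named were all 10 genes, the linked genes with the largest change in each subgroup, genes that overlap or share sequence with a member, 3 genes closest in profile to *Azin2*, and markers. Other linked genes were named to complete a subgroup. Members and lists were chosen with earlier results of these data known. Positions are from GENCODE M21 (GRCm38), which holds 20709 of the 20788 identifiers, promoters from RefSeq, and shared sequence was counted as exact 150-nt windows. Motifs were searched by letters. Alternatives were other pseudocounts (0.01 and 1), filters, scalings and variance models, a replicate block, and each library left out. Python 3.11.15, numpy 2.4.6, pandas 2.3.3 and matplotlib 3.10.9 were used.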

Additional observations from a re-analysis of the deposited data

How the results depend on the processing

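*Odc1*, *Srm*, *Azin2* and *Amd1* kept their direction and passed the test in all 16 alternatives. With all tested genes, 1254 were called 2-fold, and 388 with a pseudocount of 1 FPKM or 640 with a mean of at least 1 FPKM. Rescaling each library to a total of 1000000 FPKM reversed *Azin1* (-0.00346, adjusted p = 0.956). It left 1 linked gene higher and 16 lower, while 8803 of all tested genes passed in either direction, against 8292 as deposited. Median ratio scaling gave 6 polyamine genes higher and 1 lower, and 4 linked genes higher and 6 lower. Under it the log2 fold changes of *Sms* (-0.0264), *Oaz1* (-0.0706) and *Sat1* (-0.0224) no longer met the threshold on adjusted p, and those of *Oaz2* (0.26), *Azin1* (0.24) and *Smox* (0.33) came to meet it. Quantile normalization gave 6 polyamine genes higher, 2 lower and 1 called 2-fold (*Azin2*), with 3 linked genes higher and 9 lower, against 26.1% higher and 27.8% lower among all genes. By the same adjusted p, *Sms* (-0.0399) and *Sat1* (-0.0788) no longer passed under it, and *Oaz2* (0.22), *Azin1* (0.18) and *Smox* (0.35) did. *Sat1* (-0.18) also failed that threshold without the filter (adjusted p = 0.0671) and without the variance trend (adjusted p = 0.104). Leaving out 1 library at a time, 3 to 4 polyamine genes were higher, 2 to 4 lower and 0 to 1 called 2-fold, and the log2 fold changes ran from -0.21 to -0.15 for *Sms*, -0.23 to -0.11 for *Sat1*, 0.0463 to 0.147 for *Oaz2*, 0.0645 to 0.112 for *Azin1* and 0.0911 to 0.293 for *Smox*. Apart from the stated scalings, causes were not tested.

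The replicate numbers 1 to 3 are shared by both groups in the labels, but same-numbered libraries did not deviate together (correlations of 0.02, 0.01 and -0.08). With the number as a replicate block, 3 polyamine genes were higher, 4 lower and 0 called 2-fold, and 1258 of all genes were called, so the block changed no count for the 10 genes (*Odc1* 0.75, *Amd1* -0.63). Not every library correlated best with its own number.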
